A study of Sus scrofa with 13 samples.

Results

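The 8 genes described here are those for the CXCL12 receptors ACKR3 and CXCR4, their ligand CXCL12, and the chemokines PPBP, CXCL8, CCL2, CCL5 and CXCL10. They were picked by symbol from 27339 gene rows, and all 8 were present. Their choice was made with earlier results of the same libraries known, among them the values of ACKR3 and PPBP in hypoxia against normoxia. That comparison is therefore given for the 8 genes as a description, with no test.

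5-hydroxymethylcytosine (5hmC), the oxidised form of methylated cytosine made by the TET enzymes, was captured with an antibody from genomic DNA and sequenced. Its source was mesenchymal stem cells cultured from abdominal fat, taken from female domestic pigs that ate a high-cholesterol diet and had a coil-induced stenosis of 1 renal artery, and the fat was taken 3 weeks after the stenosis was made. The 6 hypoxia libraries came from cells held at 1% oxygen for 48 hours, and the 6 normoxia libraries from cells held at 20% oxygen. All 12 thus shared the diet, the stenosis and culture medium with platelet lysate, and no group from healthy pigs is among them. The titles start with a number, 110, 16, 21, 33, 49 or 4, and every number occurs once per group. The labels do not say whether it is an animal, so the p-values below rest on differences between libraries that could be technical.

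Chemokines are small secreted proteins that guide migrating cells through receptors coupled to G proteins. CXCL12 holds stem cells in their niche and draws them to injured tissue through CXCR4, while ACKR3 binds the same ligand, takes it up and signals mainly through arrestins. In mesenchymal stem cells this axis is known for homing, and the inflammatory chemokines CXCL8, CCL2 and CCL5 for the recruitment of leukocytes. 5hmC in a gene is often higher where the gene is transcribed, but the counts below are of marked DNA and not of RNA.

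The libraries held 263578 to 714002 gene reads, and the 8 genes together 125 to 301 of them. Values are given as reads and as CPM, gene reads scaled to the TMM-adjusted size of each library. CXCR4, PPBP, CXCL8, CCL2 and CCL5 passed the filter on low counts and were among the 11868 genes tested. ACKR3, CXCL12 and CXCL10 did not pass, and their fold changes come from a fit without the filter. Levels are compared between libraries only, since the feature type behind the counts is not named and genes could not be scaled by length. A change in the share of cells that carry the mark and a change in the mark per cell cannot be told apart in such bulk DNA.

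The hypoxia libraries had a higher 5hmC CPM at ACKR3 and a lower one at PPBP in each of the 6 title numbers. In unscaled reads PPBP was equal at number 21, with 5 reads in both libraries. The other 6 genes had no common direction. As background, edgeR's quasi-likelihood test with Benjamini-Hochberg adjustment called 0% of all tested genes for hypoxia against normoxia, and 0.0337% with the title number as a block. DESeq2 called 0 genes in all, and 324 of the 11868 genes had an unadjusted edgeR p under 0.05. The CPM of the groups overlapped for all 8 genes, and 0.138% of the 25337 genes with at least 1 read had groups that did not overlap.

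**Figure D1:**
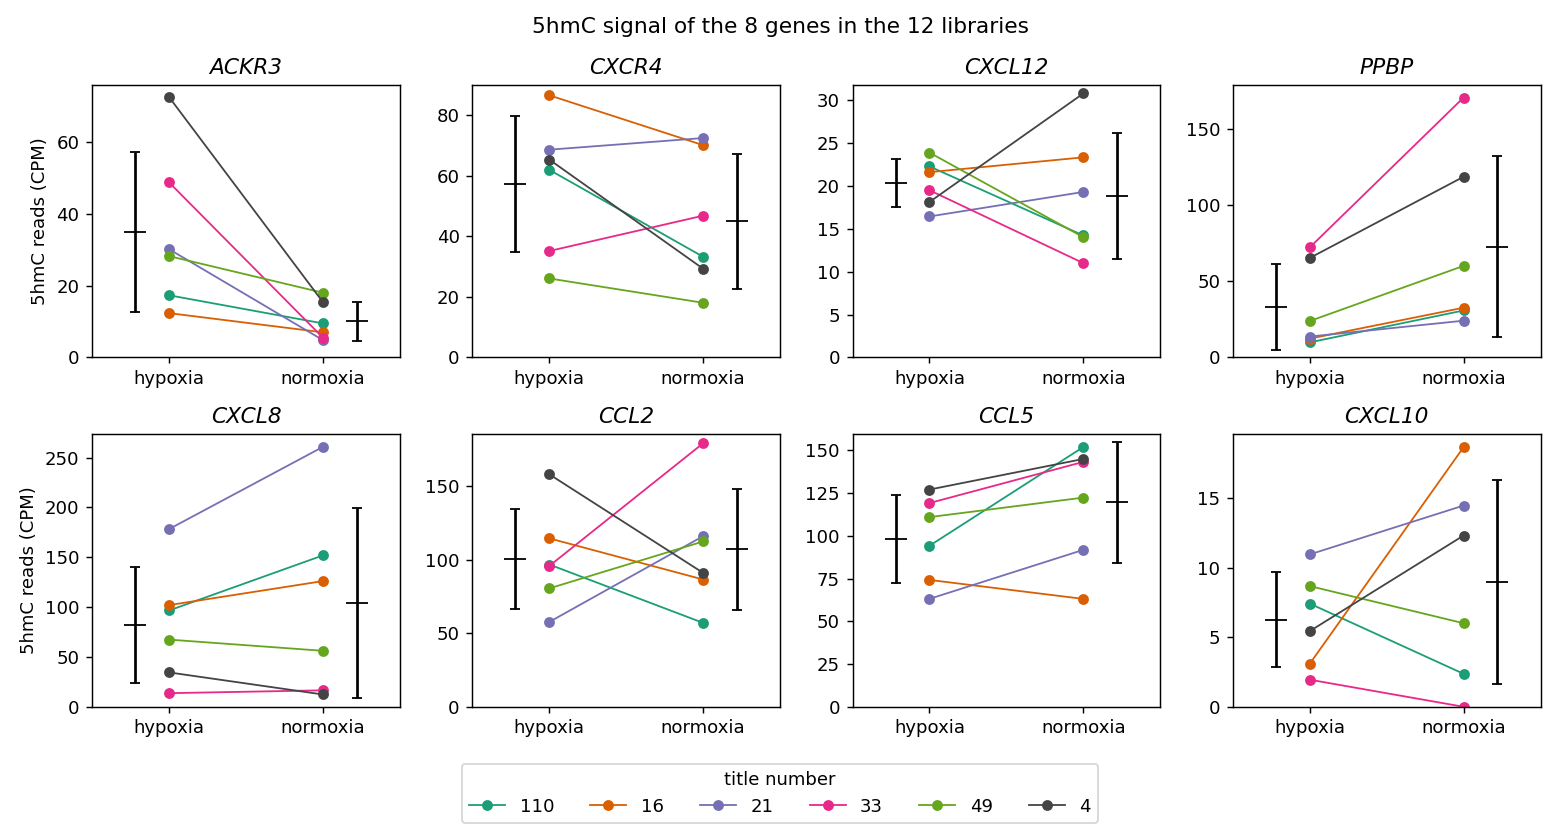
CPM (y axis, linear from 0) of the 8 genes in the 6 hypoxia and 6 normoxia libraries, with a line joining the libraries of a title number and black bars for the mean ± SD of each group. The lines of ACKR3 all run down to normoxia and those of PPBP all run up, and the CXCL8 libraries of numbers 33 and 4 lie below those of the other numbers.

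ACKR3 encodes the atypical receptor that scavenges CXCL12. In hypoxia it had 7, 4, 11, 25, 13 and 40 reads for the numbers 110, 16, 21, 33, 49 and 4, against 4, 3, 1, 2, 9 and 10 reads in normoxia. These were 12.4 to 72.6 CPM in hypoxia with a median of 29.2, and 4.83 to 18.05 CPM in normoxia with a median of 8.25. The hypoxia libraries of 4 and 33 stood highest, and the hypoxia libraries of 110 and 16 lay within the normoxia range.

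The hypoxia library had 1.57 times the normoxia CPM at number 49 and 8.86 times at number 33, the ends of the range. At number 33 the 25 reads in hypoxia have a 95% exact Poisson interval of 16.2 to 36.9, and the 2 reads in normoxia one of 0.242 to 7.225. At number 16 the intervals of 4 and 3 reads, 1.09 to 10.2 and 0.619 to 8.77, overlap almost whole. Such intervals cover counting error only. ACKR3 averaged 34.9 ± 22.3 CPM in hypoxia and 10.05 ± 5.48 CPM in normoxia (SD, n = 6 each). Its log2 fold change, hypoxia over normoxia, was 1.72 ± 0.43 (SE). Of the 25337 genes with at least 1 read, 1.42% were higher in hypoxia in 6 of 6 numbers. This set takes in genes with too few reads to be higher in all 6, so its share is unlike one over tested genes.

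CXCR4, the signalling receptor of CXCL12, differed less. It had 26.1 to 86.5 CPM in hypoxia with a median of 63.6, and 18.05 to 72.4 CPM in normoxia with a median of 40.02, on 9 to 36 reads a library. The groups overlapped over most of their range, and the hypoxia library was higher in 4 of 6 numbers. Its log2 fold change was 0.39 ± 0.35 (SE). The ratio of hypoxia to normoxia was highest at number 4, with 2.23, and lowest at number 33, with 0.751. Number 33 is the one where ACKR3 had its highest ratio.

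CXCL12, the shared ligand, had 16.5 to 23.9 CPM in hypoxia with a median of 20.6, and 11.01 to 30.8 CPM in normoxia with a median of 16.8. The hypoxia range lay wholly inside the normoxia range, and each group was higher in 3 of 6 numbers. With 53 reads over the hypoxia and 51 over the normoxia libraries, the log2 fold change was 0.09 ± 0.35 (SE).

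PPBP encodes pro-platelet basic protein, the platelet-derived precursor of the neutrophil chemokine NAP-2. It had 4, 4, 5, 37, 11 and 36 reads in hypoxia for the numbers 110, 16, 21, 33, 49 and 4, against 13, 14, 5, 62, 30 and 77 reads in normoxia. These were 9.91 to 72.2 CPM in hypoxia with a median of 18.8, and 24.15 to 170.7 CPM in normoxia with a median of 46.4. The groups overlapped, since the hypoxia libraries of 33 and 4 lay above the normoxia libraries of 110, 16, 21 and 49.

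Within a number, the hypoxia library of PPBP had 0.321 to 0.568 times the CPM of its normoxia partner. These ratios depend on the TMM scaling, and some rest on few reads. The hypoxia libraries of numbers 110 and 16 had 4 reads each, with an exact Poisson interval of 1.09 to 10.2. The 5 hypoxia reads of number 21 have one of 1.62 to 11.7. At number 21 both libraries had 5 reads, and the ratio there comes from the smaller size of the normoxia library alone. PPBP averaged 32.9 ± 28.3 CPM in hypoxia and 72.9 ± 59.3 CPM in normoxia (SD, n = 6 each). The log2 fold change was -1.10 ± 0.49 (SE), and -1.16 ± 0.25 with the number as a block. Of the tested genes, 2.59% were lower in hypoxia in 6 of 6 numbers.

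CXCL8, the pig interleukin-8 and a strong attractant of neutrophils, had 13.7 to 178.3 CPM in hypoxia with a median of 82.0, and 12.3 to 260.8 CPM in normoxia with a median of 91.15. The lowest libraries of both groups were alike, the highest CPM was in normoxia at number 21, and the hypoxia CPM was lower in 4 of 6 numbers. In unscaled reads number 21 had 65 in hypoxia and 54 in normoxia, and that normoxia library had the fewest gene reads, 263578. The log2 fold change was -0.29 ± 0.57 (SE). CXCL8 is described further with the title numbers.

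CCL2, which attracts monocytes, had 57.6 to 157.9 CPM in hypoxia with a median of 96.1, and 57.0 to 179 CPM in normoxia with a median of 101.6. Each group was higher in 3 of 6 numbers, with a log2 fold change of -0.07 ± 0.28 (SE). CCL5, which attracts T cells and monocytes, had 63.1 to 127 CPM in hypoxia with a median of 102.5, and 63.1 to 151.9 CPM in normoxia with a median of 132.8. The hypoxia library was lower in 5 of 6 numbers, all but 16, and the log2 fold change was -0.28 ± 0.25 (SE). For both genes the group means were closer to each other than the SD of either group.

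CXCL10, the interferon-induced attractant of T cells, was close to the limit of detection. It had 1 to 4 reads in each hypoxia library, 16 in all, and 0 to 8 reads in each normoxia library, 23 in all. The 0 reads of the normoxia library of number 33 allow up to 3.69 reads by the 95% exact Poisson interval. Its log2 fold change of -0.48 ± 0.58 (SE) is smaller than its error. CXCL10 overlaps ART3 in the RefSeq annotation, so reads in the shared stretch could be left out or counted for either gene.

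**Figure D2:**
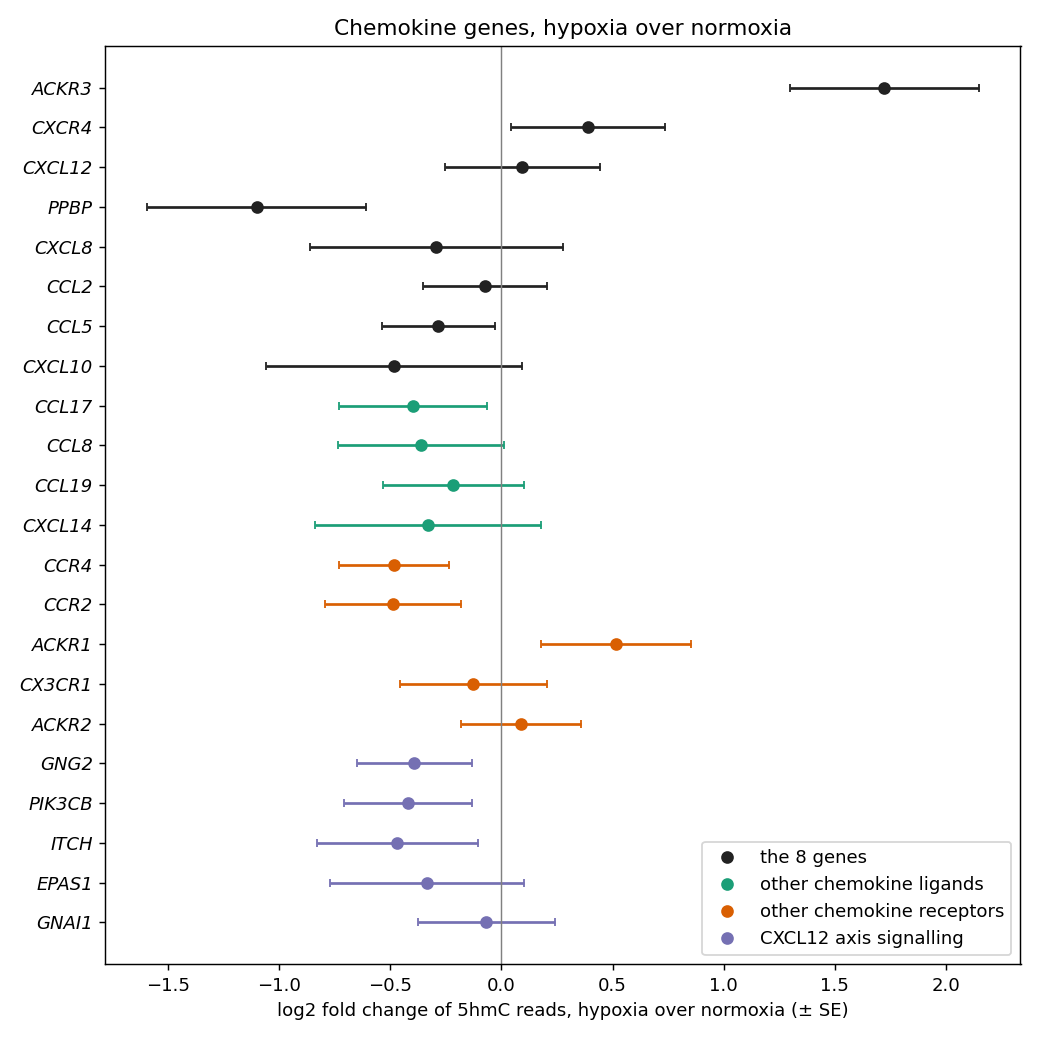
Log2 fold change of 5hmC reads, hypoxia over normoxia, with SE as bars (x axis), for the 8 genes (black), other chemokine ligands (green), other chemokine receptors (orange) and CXCL12 signalling genes (violet), those with the smallest p or called between title numbers. ACKR3 at 1.72 and PPBP at -1.10 lie outside the span of -0.49 to 0.51 of the other genes drawn. Both were chosen with these values known, so their place is a description. ACKR3 comes from the fit without the filter, and low-count genes of the lists are not drawn. All tested genes span -1.24 to 2.15.

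The wider chemokine family was read from lists of ligands, receptors and CXCL12 signalling genes without the 8 genes. Of 26 other ligands with a row, 8 were tested, and 0 passed in either direction (edgeR; also 0 at an unadjusted p under 0.05 and 0 with DESeq2). Their log2 fold changes were positive for 2 and negative for 6, with a median of -0.19, beside -0.04 over all tested genes. The smallest p values belonged to CCL17, CCL8 and CCL19. CCL17, an attractant of CCR4-bearing T cells, had 72.4 ± 32.3 CPM in hypoxia and 94.0 ± 39.6 CPM in normoxia (SD, n = 6 each), and a log2 value of -0.40 ± 0.33 (SE). CCL8, a monocyte attractant near CCL2, had -0.36 ± 0.37, and CCL19, a ligand of CCR7, -0.22 ± 0.32.

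Of 20 other receptors with a row, 11 were tested, and 0 passed (edgeR; also 0 at an unadjusted p under 0.05 and 0 with DESeq2). Positive values were found for 7 and negative values for 4, with a median of 0.04. CCR4, the receptor of CCL17, had 48.7 ± 12.95 CPM in hypoxia and 69.1 ± 12.1 CPM in normoxia (SD, n = 6 each). It was lower in hypoxia in 5 of 6 numbers, at a log2 fold change of -0.48 ± 0.25 (SE; edgeR adjusted p 1.00). CCR2, the receptor of CCL2, had -0.49 ± 0.31 and was lower in 5 of 6 numbers. ACKR1, which like ACKR3 binds chemokines without G protein signalling, had 45.9 ± 11.3 CPM in hypoxia and 34.4 ± 20.3 CPM in normoxia, with 0.51 ± 0.34.

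The CXCL12 signalling list held genes that act with or below the receptors, and also the hypoxia-inducible factors EPAS1 and HIF1A. Of its 35 genes, 28 were tested, and 0 passed (edgeR, also 0 at an unadjusted p under 0.05 and 0 with DESeq2). Negative values were found for 22 and positive values for 6, with a median of -0.06, close to the -0.04 of all tested genes, of which 6713 were negative and 5155 positive. The smallest p values were those of GNG2, a G protein gamma subunit, at -0.39 ± 0.26 (SE), PIK3CB, a phosphoinositide 3-kinase subunit, at -0.42 ± 0.29, and ITCH, the ubiquitin ligase that sends CXCR4 to degradation, at -0.47 ± 0.36.

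The 5hmC reads of CXCL8 and PPBP differed between the title numbers, in opposite directions at the ends. The number is a separate, balanced term of the blocked fit, and this test was added after the counts had been seen. CXCL8 and PPBP were the 2 of 5 tested genes that passed edgeR's quasi-likelihood test for a difference between numbers, beside 12.8% of all tested genes. CXCL8 had an F of 22.03 and an adjusted p of 2.5e-06, and PPBP an F of 15.5 and an adjusted p of 3.96e-05. CXCR4 (adjusted p 0.0556), CCL5 (0.127) and CCL2 (0.478) did not pass. CXCR4 passed without number 21 (0.0289) or without number 4 (0.0337), and CCL5 passed with all reads as library size (0.0401).

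CXCL8 had 39, 33, 65, 7, 31 and 19 reads in hypoxia for the numbers 110, 16, 21, 33, 49 and 4, and 64, 54, 54, 6, 28 and 8 reads in normoxia. Its mean over the libraries of a number was highest at 21, with 219.6 CPM, and lowest at 33, with 15.1 CPM, a ratio of 14.55. Both libraries of 33 and both of 4 lay below all other libraries. PPBP had the reverse order at these ends, with 121.5 CPM at number 33 and 18.9 CPM at number 21, a ratio of 6.42. Numbers 33 and 4 were thus high in PPBP and low in CXCL8, and this held in the hypoxia and in the normoxia libraries.

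**Figure D3:**
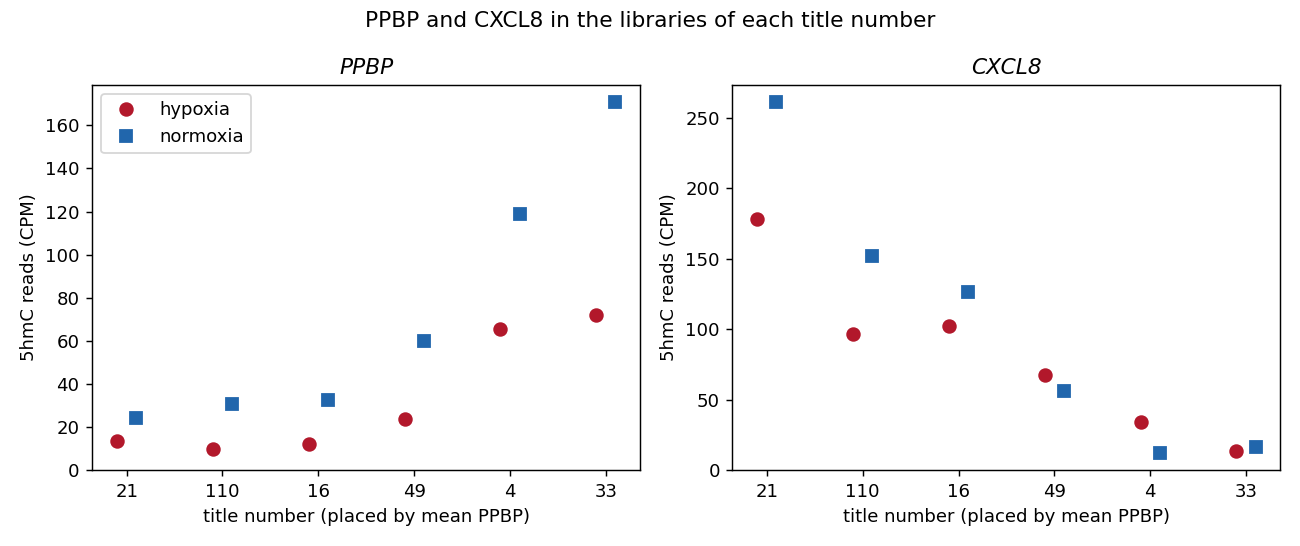
CPM of PPBP (left) and CXCL8 (right) in the hypoxia (red circles) and normoxia (blue squares) library of each title number, with the numbers placed by their mean PPBP. PPBP is highest at 33 and 4, where CXCL8 is lowest.

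The libraries of numbers 49 and 4 were sequenced in lane 8 and the others in lane 7, by the lane in the deposited file names. Within lane 7 alone, CXCL8 had an edgeR adjusted p of 0.000101 for the number and PPBP one of 0.000532, so both passed without the lane 8 libraries. Within lane 8, CXCL8 had 67.4 and 56.2 CPM at number 49 (hypoxia and normoxia) and 34.5 and 12.3 CPM at number 4. Across the 12 libraries the log2 CPM of PPBP and CXCL8 had a Pearson correlation r of -0.816 and a Spearman rank correlation of -0.706, and r of -0.678 without the libraries farthest from the median of PPBP. Within groups r was -0.908 in hypoxia and -0.973 in normoxia. These are descriptions: the libraries share title numbers and scaling, and 28 such pairs among the 8 genes were computed.

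The spread of each gene over the 12 libraries was divided into a share for the number, a share for the oxygen group and the rest, as sums of squares of log2 CPM. The number has more levels than the oxygen group, so noise alone gives it the larger share. For CXCL8 the number held 94.2%, more than for 99.1% of tested genes, and oxygen 0.0199%. For PPBP the number held 76.4%, more than for 79.3% of tested genes, oxygen 22.5% and the rest 1.09%. CCL5 had 78.9% and CXCR4 76.1% for the number, against a median of 60.5% over all tested genes. ACKR3 had 28.5% for the number and 53.45% for oxygen, where the median of tested genes was 4% for oxygen. ACKR3 was chosen with its hypoxia values known and is not among the tested genes, so its oxygen share is a description. For CXCL12 and CCL2 the rest was the larger part, with 59.7 and 63.15%. The counting error of a library at the mean count was 34.0% of the count for CXCL12 and 15.0% for CCL2.

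**Figure D4:**
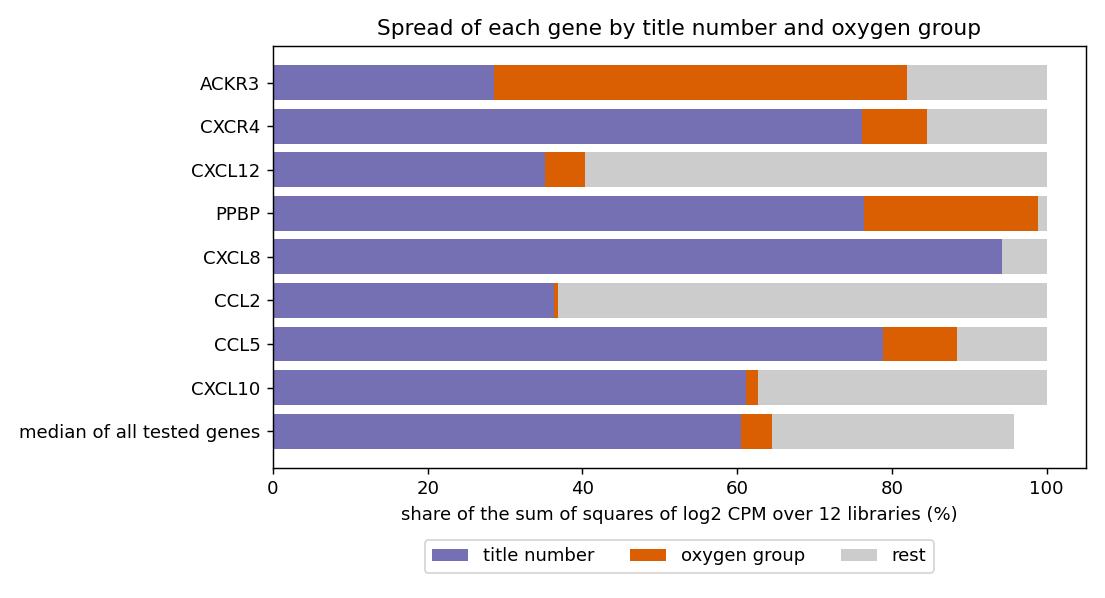
Share of the sum of squares of log2 CPM over the 12 libraries (x axis, %) held by the title number (violet), the oxygen group (orange) and the rest (grey) for each gene, with the medians of each share over all tested genes in the last bar, which need not add up to the whole. CXCL8 is nearly all violet, and ACKR3 has the longest orange part.

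Genes beside the 8 on the chromosome were read in the order of the RefSeq annotation of Sscrofa11.1, used for order only. Of 13 tested genes among the 2 genes on either side of each member, 0 passed for hypoxia against normoxia (edgeR; 1 at an unadjusted p under 0.05, and 0 with DESeq2). That 1 gene, LOC106506421, is a long non-coding RNA gene 2 genes away from ACKR3 with 57.6 ± 23.1 CPM in hypoxia and 95.7 ± 35.7 CPM in normoxia (SD, n = 6 each). Its log2 fold change of -0.70 ± 0.32 (SE) is opposite in sign to that of ACKR3. LOC106506421 was lower in hypoxia in 6 of 6 numbers, beside 2.59% of tested genes. It was named after its values were seen. The tested genes next to ACKR3, LOC110256974 and LOC106506422, had 0.60 ± 0.45 and 0.10 ± 0.31.

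CXCL8, AMCF-II, PPBP and LOC100520680 follow each other on chromosome 8. LOC100520680, the tested gene next to PPBP, had a log2 fold change of -0.13 ± 0.33 (SE), against the -1.10 of PPBP. Its level by number had the order of PPBP at the ends, with 83.5 CPM at 33 and 30.95 CPM at 21, and an r of 0.836 with PPBP and -0.853 with CXCL8 over the 12 libraries. It did not pass for the number (edgeR adjusted p 0.0539). AMCF-II, an attractant of neutrophils between CXCL8 and PPBP, had 2 to 7 reads a library and was not tested. Its r was 0.534 with CXCL8 and -0.690 with PPBP. LOC106504691, on the other side of CXCL8, had -0.49 ± 0.27 for hypoxia over normoxia and passed for the number (edgeR adjusted p 0.0451). Its highest mean was 241.2 CPM at 33, where CXCL8 was lowest. Its lowest was 99.95 CPM at 49, and its r was -0.302 with CXCL8 and 0.514 with PPBP. CXCL2, with 1 to 12 reads a library and not tested, had an r of 0.526 with PPBP. Its highest means were 22.73 CPM at 33 and 22.72 CPM at 21. LOC100525396 and LOC106504690 did not share the order of PPBP. LOC100525396, 2 genes after PPBP, was lowest at 33, with 15.3 CPM, and had an r of -0.263 with PPBP. LOC106504690, 2 genes before CXCL8, had an r of 0.033 with PPBP and 0.007 with CXCL8.

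The nearest tested genes on either side of the other members were not always adjacent to them, and none passed for hypoxia against normoxia. THSD7B and LCT, each 3 genes away from CXCR4, had log2 fold changes of 0.34 ± 0.31 (SE) and -0.20 ± 0.37. LOC110256705, next to CXCL12, had -0.28 ± 0.45, and UBE2D1, 9 genes away on the other side, had -0.21 ± 0.44. CCL8, 2 genes away from CCL2, had -0.36 ± 0.37 and an r of 0.799 with CCL2 over the 12 libraries, and LOC110256055, next to CCL2, had 0.27 ± 0.28. LOC110256046, 6 genes away from CCL5, had 0.20 ± 0.35, and HEATR9, next to CCL5, had -0.26 ± 0.29. SDAD1, 3 genes away from CXCL10, had 0.53 ± 0.29, and NUP54, 2 genes away, had -0.22 ± 0.27. The hypoxia CPM of SDAD1 was higher in 6 of 6 numbers, beside 1.42% of the genes with at least 1 read.

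The genes most like each of the 5 tested members over the 12 libraries were taken by Pearson's r of log2 CPM among 8906 tested genes with a symbol. For PPBP the highest was PGS1, a mitochondrial phospholipid enzyme, with an r of 0.959. For CXCL8 they were YOD1, a deubiquitinase, with 0.955, and MTPAP, the mitochondrial poly(A) polymerase, with 0.939. For CCL5 they were HEY2, a transcription factor below Notch, with 0.965, and MTBP with 0.939. CXCR4 had TIAM1, an activator of the GTPase Rac, with 0.928 and the myosin gene MYO1F with 0.907, and CCL2 had UPF2, of nonsense-mediated decay, with 0.906 and TRNAU1AP with 0.872. They are the highest of many values over few libraries.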

How the data were processed

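Antibody-enriched DNA of 12 libraries was sequenced from both ends. The submitters' processing notes name Bowtie2, Picard, HTSeq, MACS2 and edgeR. The authors deposited raw HTSeq counts per gene symbol, 1 table per library. The genome build, annotation, HTSeq feature type and strand setting are not named in any source at hand, and reads of DNA cannot separate overlapping genes by strand. The deposited peak lists were not used here, since no build is named. Genes held 1.69 to 2.89% of the reads of a library, and 88.0 to 93.0% were in no feature. HTSeq's summary rows and a blank row were dropped. The input sample has no group and was not analysed here. In all 66 pairs of libraries the counts differed by more than sampling noise, with a reduced chi-square of 1.26 or more. Of the gene rows, 26838 matched a RefSeq symbol.

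Tests used edgeR 4.0.16 under R 4.3.3 (filterByExpr, minimum count 10 and total 15, TMM, glmQLFit, glmQLFTest, Benjamini-Hochberg over all genes, threshold 0.05). DESeq2 1.42.0 was an alternative. CPM, ratios and SE (from the log2 fold change and F) were computed here with edgeR, and log2 CPM for spread and likeness used a prior count of 2. The script was tested on simulated data. The members and gene lists were chosen with earlier results of these data known. Genes named are the 8 members, the 3 list genes with the smallest p, the nearest tested neighbours and the 2 most alike genes, of which 1 is not reported here. List genes called between title numbers, LOC106506421, LOC100525396, LOC106504690, AMCF-II and CXCL2 were named after their values were seen. The title numbers paired the libraries: deviations from the group means correlated at 0.136 to 0.478 within each number, above the threshold of 0.1. The numbers are those at the start of the sample titles.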

Additional observations from a re-analysis of the deposited data

How the results depend on the processing

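The 4 counts of list and neighbour genes called for hypoxia against normoxia were 0 under every alternative run. Over all genes the count was 0 in the fit without a block, under each scaling, without a filter, within lane 7 or 8 and without any 1 library. It was 4 with the title number as a replicate block, and in the blocked fit without both libraries of 1 number it was 3 without 16, 12 without 21, 1 without 49 and 0 without 110, 33 or 4. The block changed no other call. Between title numbers 1520 genes were called. DESeq2 called 921, the fit without a filter 2303, lane 7 alone 834, and fits without 1 number 884 to 1935. CXCL8 and PPBP passed in all 11 of these alternatives, with an adjusted p of 0.000346 and 0.00354 at most (edgeR, without number 33).

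ACKR3 kept a positive log2 fold change in 24 of 24 settings (1.34 without hypoxia 4 to 2.01) and PPBP a negative one in 25 of 25 (-0.69 without normoxia 33 to -1.48 without hypoxia 33). CXCR4 and CCL5 also kept their sign. The settings reuse the same 12 libraries, and ACKR3 and PPBP were chosen with their values in them known. A kept sign is therefore a description and no further support. CXCL8 turned to 0.63 in lane 8 and 0.15 without normoxia 21, and CCL2 (6 settings), CXCL12 (2) and CXCL10 (1) changed sign too. Depth limits ACKR3, CXCL12 and CXCL10 most, at 129, 104 and 39 reads over all libraries.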

Other observations

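Some other chemokine genes also passed the test for title numbers, at shares above and below that of all tested genes. Of the 8 tested ligands outside the 8 genes, 3 passed edgeR's test for the number (37.5%). So did 2 of 11 receptors (18.2%) and 2 of 28 CXCL12 signalling genes (7.14%), beside 12.8% of all tested genes. Whether the lists differ from all tested genes was not tested. CXCL14, an epithelial and stromal chemokine, had 146.1 CPM at number 33 and 20.65 CPM at number 110 (edgeR adjusted p 5.8e-05). CCL17 had its highest mean at 110, with 120.7 CPM, and its lowest at 33, with 33.7 CPM (0.0068). CCL19 was highest at 16, with 115.6 CPM, and lowest at 4, with 36.6 CPM (0.0248). Number 33 was thus the highest for CXCL14 and the lowest for CCL17.

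CX3CR1, the fractalkine receptor, had 149 CPM at number 21 and 50.2 CPM at number 33 (edgeR adjusted p 0.0061). ACKR2, a scavenger of inflammatory chemokines, had 215.7 CPM at number 49 and 78.3 CPM at number 33 (0.0362). EPAS1, the hypoxia-inducible factor HIF-2 alpha, had 69.2 CPM at number 33 and 14.5 CPM at number 110 (0.00733). GNAI1, an inhibitory G protein subunit, had 162.7 CPM at number 49 and 56.6 CPM at number 33 (0.019).

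The stromal markers THY1, ENG, NT5E, CD44, PDGFRB and PDGFRA all had enough reads to be tested, and their summed level was 590 to 874 CPM in hypoxia and 560 to 1167 CPM in normoxia. Leukocyte markers, 7 of 10 of them tested, summed to 724 to 840 CPM in hypoxia and 579 to 951 CPM in normoxia. Platelet and megakaryocyte markers, 5 of 10 tested, summed to 230 to 400 CPM in hypoxia and 222 to 495 CPM in normoxia. Endothelial markers, 8 of 9 tested, summed to 552 to 708 CPM in hypoxia and 421 to 663 CPM in normoxia. Their log2 fold changes were positive for 5 and negative for 3, from -0.82 to 0.40. Of these markers 1 had an unadjusted edgeR p under 0.05, and 0 did in the other marker lists. The ranges of the groups overlapped for each list. Reads of marked DNA at a gene do not count the cells that express it, and the part of other cell types in the values above was not tested.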
